A study of Mus musculus with 4 samples.

Results

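miR-181, miR-150, miR-342 and miR-142 are microRNAs (miRNAs) of lymphocytes and other white cells. They were chosen by name, as the annotated loci mmu-mir-181a-1, mmu-mir-181a-2, mmu-mir-181b-1, mmu-mir-181b-2, mmu-mir-181c, mmu-mir-181d, mmu-mir-150, mmu-mir-342 and mmu-mir-142, written miR-181a and so on in what follows. All 9 loci were found, of 374 annotated loci listed, and they carry 7 different mature sequences. The 9 loci were listed in all 4 libraries with the same counted window, and all 9 passed the filter on low counts and were among the loci tested.

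The series is small RNA sequencing of whole blood from Balb/c mice, an inbred albino strain, aged 180 days. A group that received cadmium in the drinking water had 2 libraries (cadmium 1 and cadmium 2), and a control group under normal husbandry had 2 libraries (control 1 and control 2). Both groups had free access to feed and water. The sources used here give neither the cadmium dose nor its duration. They also do not say that each library is a different mouse, so the p-values cover library-to-library spread alone, part or all of which may be technical. Counts at annotated loci summed to 14383852 and 15565712 in cadmium 1 and 2, and 35244119 and 24622926 in controls 1 and 2. Loci that share a mature sequence each count its reads in these sums. With each tested sequence counted once, there were 8881901 and 9558443 reads in cadmium 1 and 2, and 21394469 and 15140683 in controls 1 and 2. Whole blood mixes red cells, platelets and all white cells, and in such bulk samples fewer cells of a type and less RNA per cell cannot be told apart. The files hold no protein-coding transcripts, so the cell types of the blood could be checked through miRNAs alone.

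A miRNA is cut from a hairpin transcript and, held by an Argonaute protein, pairs with messenger RNAs mainly through its seed, bases 2 to 8, lowering their translation and stability. miR-181a is known in mouse thymus for setting the sensitivity of T cell receptor signalling and for its part in B cell development. miR-150 is abundant in mature B and T cells and targets the transcription factor Myb. miR-342 lies in the gene of the actin regulator Evl and is found in several white cell lineages. miR-142 is made in nearly all blood-forming lineages and is widely used as a pan-haematopoietic marker.

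The mature sequences of the arms counted are printed because the 4 miR-181 sequences share a seed and differ by a few later bases, which bears on how their reads can be told apart. They are RefSeq entries of build GRCm38.p6, found for 8 of the 9 loci, written 5′ to 3′ with the seed in capitals.
mmu-miR-181a-5p: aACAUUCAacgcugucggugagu
mmu-miR-181b-5p: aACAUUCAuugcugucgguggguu
mmu-miR-181c-5p: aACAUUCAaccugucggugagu
mmu-miR-181d-5p: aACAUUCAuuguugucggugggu
mmu-miR-342-3p: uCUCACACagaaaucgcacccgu
mmu-miR-142a-5p: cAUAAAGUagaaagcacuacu
The 4 miR-181 sequences hold the seed ACAUUCA, while miR-342 and miR-142 each have a seed of their own. In the windows counted, with positions from 1 at the 5′ end, miR-181a and miR-181b differ by A9U, C10U and A21G, and miR-181b and miR-181d by C12U alone. miR-181a and miR-181c are 1 insertion or deletion apart. Reads with a changed base could therefore pass between miR-181b and miR-181d, and reads with a lost or gained base between miR-181a and miR-181c, so levels of these sequences taken singly carry that uncertainty.

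The loci lie in 6 places of the mm10 genome. miR-181a-1 (chromosome 1, 137966468 to 137966489, plus strand) and miR-181b-1 (137966650 to 137966671) start 182 bases apart within an intron of the noncoding transcript Gm4258, and miR-181b-1 also lies in an exon of the noncoding gene A430106G13Rik. miR-181a-2 (chromosome 2, 38852741 to 38852762, plus strand) and miR-181b-2 (38853845 to 38853866) start 1104 bases apart, antisense to an intron of Nr6a1, the gene of an orphan nuclear receptor. miR-181c (chromosome 8, 84178925 to 84178945, minus strand) and miR-181d (84178760 to 84178781) start 165 bases apart in an intron of Nanos3, a germ cell gene, on its own strand. miR-150 (chromosome 7, 45121762 to 45121783, plus strand) lies in no annotated gene but its own. miR-342 (chromosome 12, 108658680 to 108658701, plus strand) lies within Evl, in an intron, and miR-142 (chromosome 11, 87756867 to 87756886, also plus) in an intron of its noncoding host Mir142hg. Both copies of miR-181a encode the same mature sequence and were given the same reads, as were both copies of miR-181b. Their reads cannot be assigned to chromosome 1 or chromosome 2, and in what follows each is described once.

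Cadmium blood had less miR-181a, the member best known from T cell development, at 1.75-fold below control level, and this was the only member sequence past the threshold. By normalized level, the other miR-181 sequences and miR-150 were lower in both cadmium libraries than in both controls but missed the threshold. The normalized levels of miR-142 and miR-342 overlapped between the groups. As shares of reads before normalization, miR-181c overlapped instead, and miR-142 was higher in both cadmium libraries than in both controls. Levels are given as CPM, read counts per 1000000 counts summed over the loci tested, after TMM normalization, a scaling that trims the most divergent loci. Loci that share a sequence each count its reads in that sum, so CPM is not a share of distinct reads. Tests are edgeR quasi-likelihood tests adjusted by the Benjamini-Hochberg method over all loci tested, with a threshold of 0.05. Of the 9 member loci 2 fell, both copies of miR-181a, and 0 rose. Over all loci tested, 14.5% were called, 6.52% lower and 7.97% higher. With each mature sequence counted once, 1 of the 7 member sequences fell, against 6.16% of all sequences. At an unadjusted p under 0.05, 7 member loci (5 sequences) were lower and 0 higher, and DESeq2 called 6 lower and 0 higher. Over all 276 loci tested 12.0% were lower at an unadjusted p under 0.05, and DESeq2 called 28 lower and 23 higher. In CPM after TMM normalization the groups did not overlap at 7 of the 9 member loci, all lower with cadmium. Over all loci 69.9% did not overlap in either direction and 30.4% in that direction. The median log2 fold change was -0.55 over the 9 member loci and -0.37 over the 7 sequences, against 0.08 over all loci tested.

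miR-181a stood at 1973 and 1975 CPM in cadmium 1 and 2, against 3978 and 2943 CPM in controls 1 and 2. The cadmium libraries were nearly equal and both lay below the lower control, while the controls differed 1.35-fold. The log2 fold change was -0.81 ± 0.16 (SE, 2 libraries per group; edgeR adjusted p = 0.0133). Without cadmium 1 the value was -0.81, and without cadmium 2 it was also -0.81. Neither of these fits called miR-181a, but each leaves 1 cadmium library and takes its spread from the controls alone. The value was -0.58 without control 1 and -1.01 without control 2, where the spread comes from the cadmium libraries alone. The call was also lost with total counts as the only scaling, at -0.51 and an edgeR adjusted p = 0.0550.

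miR-181b, which differs from miR-181a at 3 positions after the seed and shares both of its clusters, had 109 and 105 CPM in cadmium 1 and 2, against 224 and 145 CPM in controls 1 and 2. Control 1 was 1.55-fold above control 2, the widest gap between controls of any miR-181 sequence. The log2 fold change was -0.78 ± 0.25, with an edgeR adjusted p = 0.0709. It was -0.43 without control 1 and -1.07 without control 2. It passed the threshold in 7 of 18 alternatives, both of these fits among them, which take their spread from the cadmium libraries alone.

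miR-181c and miR-181d, the chromosome 8 cluster, had smaller differences and closer controls. miR-181c had 2114 and 2011 CPM in cadmium 1 and 2, against 2761 and 2539 CPM in controls 1 and 2 (log2 fold change -0.36 ± 0.13, edgeR adjusted p = 0.0920). miR-181d had 320 and 321 CPM in cadmium 1 and 2, against 417 and 411 CPM in controls 1 and 2 (-0.37 ± 0.15, edgeR adjusted p = 0.158). In CPM the groups did not overlap for either sequence, and neither difference passed the threshold. As a share of reads of distinct sequences, before normalization, miR-181c did overlap. It held 0.385% and 0.3575% in cadmium 1 and 2, against 0.4055% and 0.3762% in controls 1 and 2. With total counts the values shrank to -0.06 for miR-181c and -0.07 for miR-181d (edgeR adjusted p = 0.821 and 0.836). miR-181c passed with DESeq2 size factors (edgeR adjusted p = 0.0460) and miR-181d in the DESeq2 test (adjusted p = 0.0484). With all 4 libraries the values lay near -0.8 for miR-181a and miR-181b and near -0.4 for miR-181c and miR-181d, but the gap depended on control 1. Without control 1 they were -0.58 for miR-181a, -0.43 for miR-181b, -0.30 for miR-181c and -0.36 for miR-181d.

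**Figure D1:**
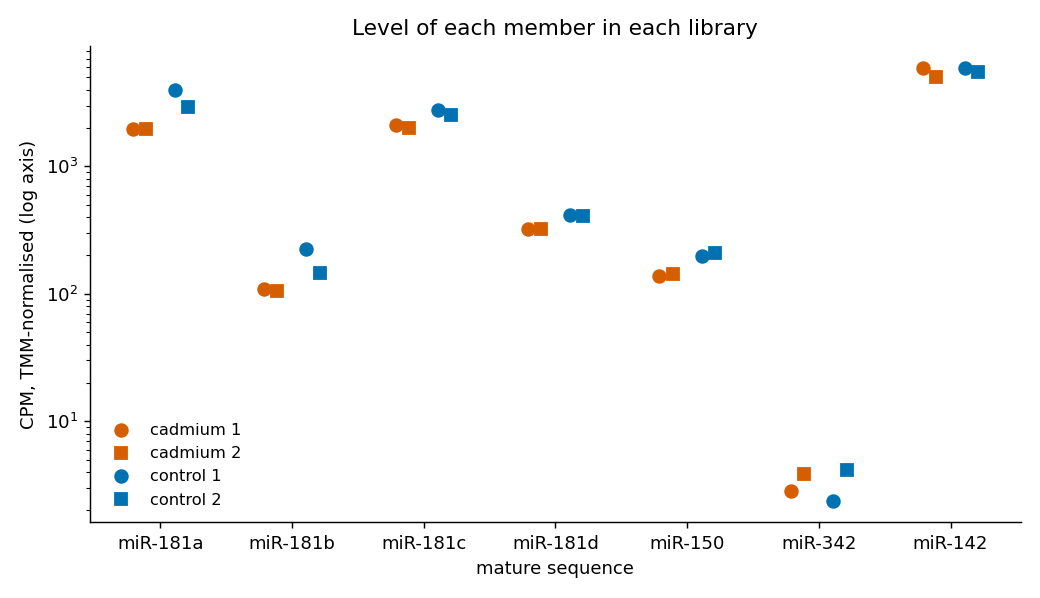
Level of each member sequence in each library, in CPM after TMM normalization on a log axis; orange marks cadmium and blue control, circles library 1 and squares library 2. For miR-181a, miR-181b, miR-181c, miR-181d and miR-150 both cadmium libraries lie below both controls, with miR-181a at 1973 and 1975 CPM against 3978 and 2943 CPM, while miR-342 and miR-142 overlap.

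Because the 4 sequences are so alike, their reads were also summed to 1 row, a choice made after seeing the data. Summed miR-181 had a log2 fold change of -0.63 with an SE of 0.13 (edgeR adjusted p = 0.0138), and reads exchanged between miR-181 sequences stay within this sum. With total counts as the scaling it was -0.29 (edgeR adjusted p = 0.127), with miR-142 reads as the scaling -0.51 (edgeR adjusted p = 0.0866), and with loci whose windows match exactly -0.64 (edgeR adjusted p = 0.0504). Without cadmium 1 and without cadmium 2 it was -0.64 and -0.62 and was not called in either fit, each with 1 cadmium library. It was -0.47 without control 1 and -0.83 without control 2.

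The make-up of the miR-181 reads within a library does not depend on scaling between libraries. miR-181a supplied 43.7% and 44.8% of miR-181 reads in cadmium 1 and 2, against 53.9% and 48.7% in controls 1 and 2. miR-181c supplied 46.8% and 45.6% in cadmium 1 and 2, against 37.4% and 42.1% in controls 1 and 2. miR-181c was thus the most read miR-181 sequence in both cadmium libraries and miR-181a in both controls. In cadmium 2 the margin was small, at 34173 against 33570 reads, and reads could pass between these sequences as said above. The 95% Wilson intervals cover counting error only, since PCR reads are not independent molecules. For miR-181a they were 43.3% to 44.1% in cadmium 1 and 44.4% to 45.1% in cadmium 2. They were 53.7% to 54.1% in control 1 and 48.5% to 49.0% in control 2. The intervals of the controls were thus also apart from each other, so separate intervals do not measure a difference between the groups. miR-181d held 7.09% and 7.27% in cadmium 1 and 2 and 5.65% and 6.81% in controls 1 and 2. miR-181b held 2.41% and 2.38% in cadmium 1 and 2 and 3.03% and 2.40% in controls 1 and 2, so its share overlapped between the groups.

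**Figure D2:**
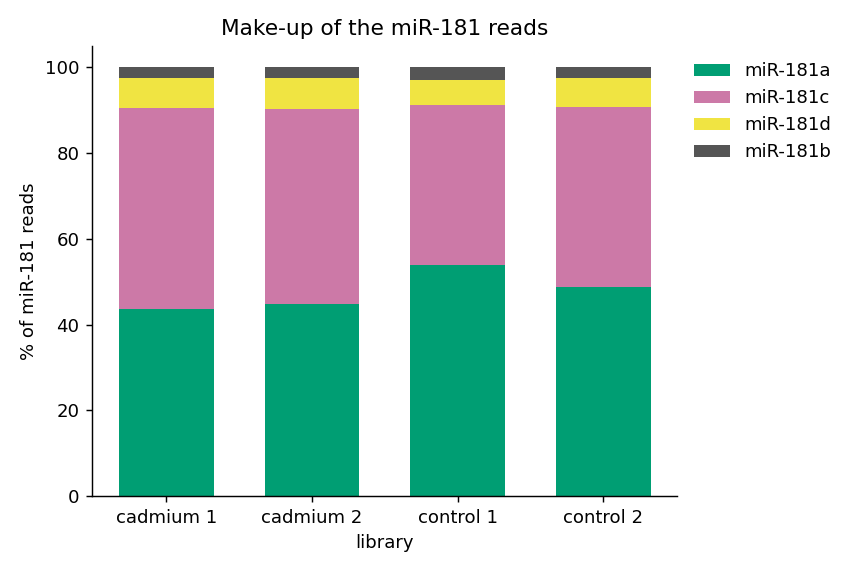
Share of each miR-181 sequence in the miR-181 reads of each library, in percent; bars are stacked to the whole. miR-181a falls short of miR-181c in cadmium 1 and 2 (43.7% and 44.8% against 46.8% and 45.6%) and exceeds it in controls 1 and 2 (53.9% and 48.7% against 37.4% and 42.1%).

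The same was seen as ratios. There were 1.07 and 1.02 miR-181c reads per miR-181a read in cadmium 1 and 2, against 0.694 and 0.863 in controls 1 and 2, a difference of 0.43 on the log2 scale. For miR-181d per miR-181a read the ratios were 0.162 and 0.162 in cadmium 1 and 2, against 0.105 and 0.140 in controls 1 and 2, a difference of 0.42. The groups did not overlap in either ratio. For miR-181b per miR-181a read they did, at 0.0552 and 0.0532 in cadmium 1 and 2 and 0.0563 and 0.0491 in controls 1 and 2, a difference of 0.04. The exact two-sided permutation test of 2 libraries against 2 cannot go below p = 0.333, the value of both ratios without overlap, and 6 ratios were computed in all. In the fit over all loci with miR-181c reads as the only scaling, added after seeing the data, miR-181a stood at -0.44 ± 0.17 relative to miR-181c (edgeR adjusted p = 0.0576), miR-181b at -0.41 ± 0.23 (edgeR adjusted p = 0.169) and miR-181d at -0.01 ± 0.19 (edgeR adjusted p = 0.977). The difference between miR-181a and miR-181c therefore did not pass the threshold.

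miR-150, the miRNA of mature lymphocytes, had 137.9 and 142.04 CPM in cadmium 1 and 2, against 199 and 211 CPM in controls 1 and 2. The libraries of each group differed by at most 1.06-fold and the groups did not overlap. The log2 fold change was -0.55 ± 0.18 and missed the threshold (edgeR adjusted p = 0.0741). The value was -0.25 with total counts and -0.31 with the upper quartile (edgeR adjusted p = 0.377 and 0.376), and -0.64 with DESeq2 size factors, where it passed (edgeR adjusted p = 0.0420). It passed in 4 of 18 alternatives, among them the fits without control 1 and without control 2. Those fits take their spread from the cadmium libraries alone.

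miR-342 was rarely read, with 46 and 65 reads in cadmium 1 and 2 and 75 and 93 reads in controls 1 and 2. Its level was 2.84 and 3.82 CPM in cadmium 1 and 2, against 2.39 and 4.15 CPM in controls 1 and 2. The controls lay on either side of both cadmium libraries. The log2 fold change was 0.05 ± 0.33 (edgeR adjusted p = 0.901). The controls differed 1.74-fold, and their 95% Wilson intervals as a share of reads did not overlap. Under DESeq2 size factors the sign turned, at -0.040, so no direction is given.

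miR-142, counted on its 5p arm, was the most abundant member. It had 5908 and 5060 CPM in cadmium 1 and 2, against 5963 and 5510 CPM in controls 1 and 2, and cadmium 1 lay between the controls. The log2 fold change was -0.07 ± 0.12 (edgeR adjusted p = 0.722), and it turned to 0.24 with total counts and 0.17 with upper quartile scaling, without passing the threshold in either.

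**Figure D3:**
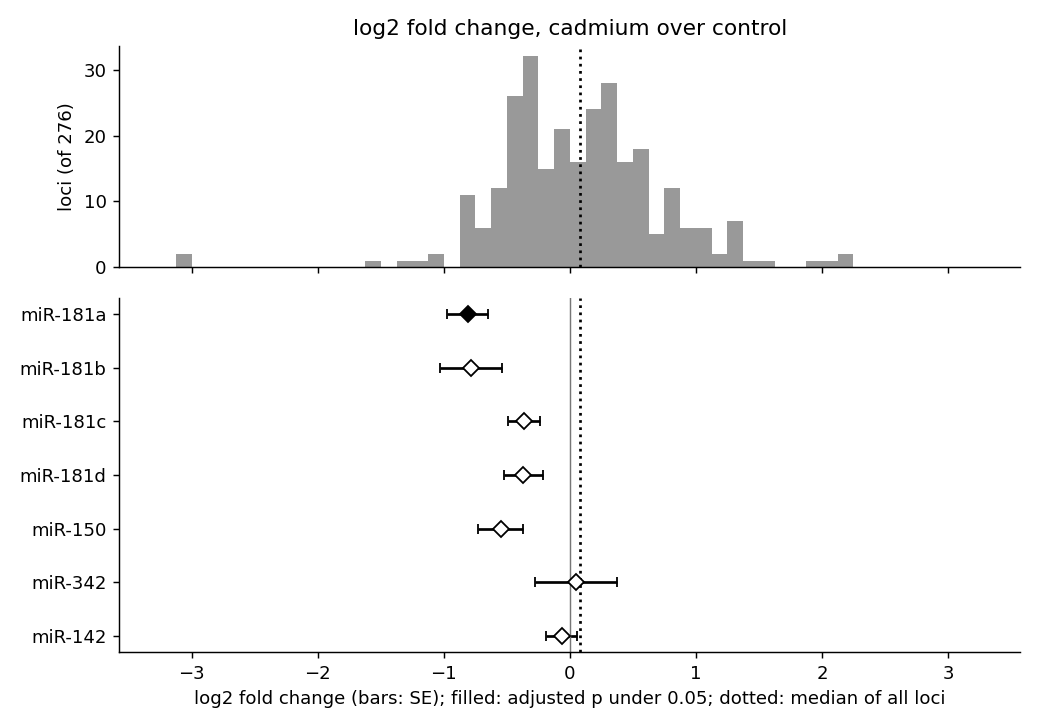
Log2 fold change of cadmium over control: the upper panel is a histogram of all loci tested, the lower panel the 7 member sequences with their SE, filled where the adjusted p is under 0.05; the dotted line is the median of all loci, 0.08. miR-181a is the filled point at -0.81, and miR-342 and miR-142 lie near 0.

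Set against miR-142, the marker shared by white cell lineages, miR-181a and miR-150 were lower in every cadmium library. miR-142 was itself a larger share of reads in both cadmium libraries than in both controls, so it is not a fixed reference. There were 0.334 and 0.390 miR-181a reads per miR-142 read in cadmium 1 and 2, against 0.667 and 0.534 in controls 1 and 2. For miR-150 there were 0.0233 and 0.0281 in cadmium 1 and 2, against 0.0333 and 0.0383 in controls 1 and 2. Neither ratio overlapped between the groups, and the differences of -0.73 and -0.48 on the log2 scale had the smallest exact permutation p this design allows, 0.333. The miR-342 ratio overlapped, at 0.000481 and 0.000756 in cadmium 1 and 2 and 0.000400 and 0.000752 in controls 1 and 2. In the fit over all loci with miR-142 reads as the only scaling, miR-181a fell by 0.73 ± 0.21 and miR-181b by 0.70 ± 0.25 on the log2 scale (edgeR adjusted p = 0.0110 and 0.0465). miR-150 stood at -0.48 ± 0.24 in that fit (edgeR adjusted p = 0.189), miR-181c at -0.29 and miR-181d at -0.30 (edgeR adjusted p = 0.383 and 0.402).

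**Figure D4:**
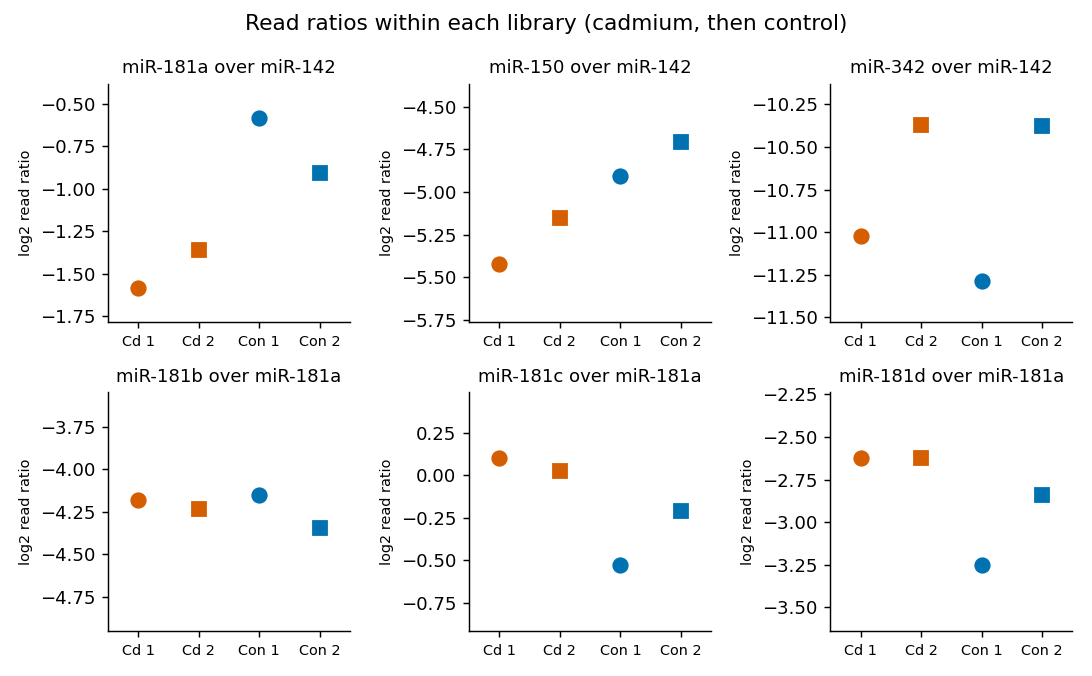
Log2 ratio of reads of 2 members within each library, each panel spanning the same range; orange is cadmium (Cd), blue control (Con). miR-181a over miR-142 and miR-150 over miR-142 are lower in both cadmium libraries, miR-181c and miR-181d over miR-181a higher, and the panels of miR-342 over miR-142 and miR-181b over miR-181a overlap.

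The choice of scaling moved all loci together. The median log2 fold change of all loci was 0.08 with TMM, -0.01 with DESeq2 size factors, 0.21 with totals that leave out loci holding over 10% of the counts, 0.32 with upper quartile scaling and 0.38 with total counts. A scaling of whole libraries shifts each locus and the median nearly alike, so a value relative to the median hardly depends on it by construction and is given only as a description. Relative to that median, miR-181a stood between -0.89 and -0.88 with TMM, these 4 scalings and the scaling by miR-142 reads. On the same footing miR-181b lay between -0.86 and -0.85, miR-150 between -0.64 and -0.63, miR-181d between -0.46 and -0.45, miR-181c between -0.45 and -0.44, and miR-342 between -0.05 and -0.03. miR-142 lay between -0.15 and -0.14 in the 5 of these fits that tested it.

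**Figure D5:**
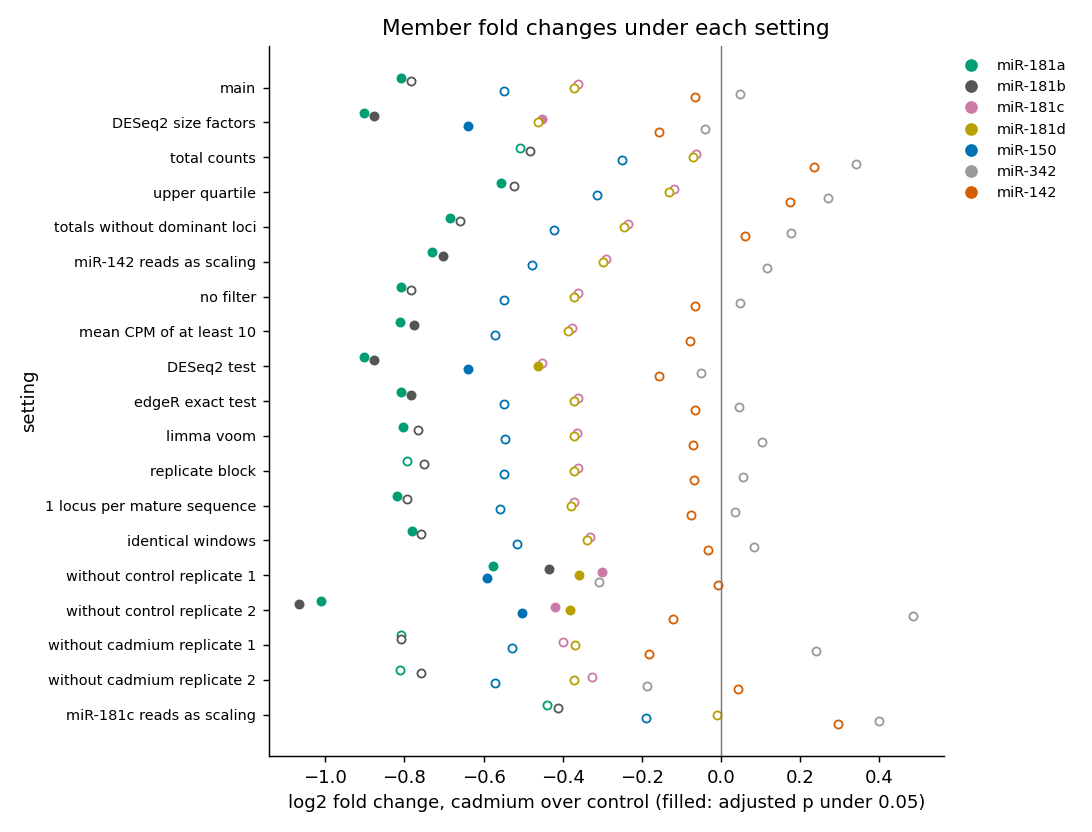
Log2 fold change of the 7 member sequences (x axis) under each setting of scaling, filter, test and libraries (y axis); filled points have an adjusted p under 0.05. miR-181a lies left of 0 in each setting, from -1.01 to -0.44, and its point is open without cadmium 1, without cadmium 2, with total counts, with the replicate block and relative to miR-181c.

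By abundance the members ran from miR-142, 16th among 211 distinct sequences by mean CPM, through miR-181a (22nd), miR-181c (26th), miR-181d (49th), miR-150 (61st) and miR-181b (63rd) to miR-342 (145th). The windows are 20 to 22 bases long and the levels were not divided by length. miR-181a and miR-181c, neighbours in this order, changed places between the groups as described above. The levels of miR-150 and miR-181b overlapped in the controls, while in both cadmium libraries miR-150 was the higher. The other neighbours kept their order in all 4 libraries. The miR-181 family together held 0.822% and 0.784% of the reads of distinct sequences in cadmium 1 and 2, against 1.08% and 0.895% in controls 1 and 2. miR-142 alone held 1.08% and 0.900% in cadmium 1 and 2, against 0.876% and 0.816% in controls 1 and 2. By this share, unlike by CPM, both cadmium libraries lay above both controls.

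The sequences whose pattern over the 4 libraries lay nearest to that of each member were found among 68 distinct sequences with a mean CPM of at least 100, by the Euclidean distance of centred log2 CPM. Nearest to miR-181a were miR-181b (0.150), miR-144 (0.229), a miRNA of red cell precursors, and miR-27b (0.253). Nearest to miR-150 were miR-421 (0.114), miR-30a (0.127) and the sequence listed as miR-3107 (0.143), which is also that of miR-486, the dominant red cell miRNA. Nearest to miR-142 were miR-15a (0.123), miR-340 (0.126) and miR-22 (0.170). Nearest to miR-342 were miR-93 (0.483), miR-19a (0.486) and miR-1839 (0.492). Its own level lies far below the floor set for candidates, so no sequence as rarely read could be found near it.

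Among the other white cell miRNAs no fall passed the edgeR threshold, and DESeq2 called 1 lower, the myeloid miR-146b. Of 9 further lymphocyte loci (7 sequences), 0 passed the edgeR threshold in either direction. At an unadjusted p under 0.05, 0 were lower and 2 higher, and DESeq2 called 2 higher, the copies of miR-29b, which carry the same reads. The most abundant, miR-26a, stood at -0.06 ± 0.12, and miR-155, induced when lymphocytes are activated, at -0.49 ± 0.28 (edgeR adjusted p = 0.726 and 0.326). Of 6 loci of the proliferation-linked miR-17 cluster, 1 rose and 0 fell, miR-18a at 2.16 ± 0.26 (edgeR adjusted p = 0.00204), and the most abundant, miR-92a-1, stood at -0.05 ± 0.14. At an unadjusted p under 0.05, 0 of the 6 were lower and 3 higher, and DESeq2 called 0 lower and 1 higher. Of 7 myeloid loci 6 were tested, miR-223 not among them. Of the 6 tested loci 2 rose and 0 fell, the copies of miR-24 at 1.10 ± 0.20 (edgeR adjusted p = 0.00979), while miR-21a, the most abundant, stood at -0.03 ± 0.10. At an unadjusted p under 0.05, and likewise with DESeq2, 1 myeloid locus was lower and 3 were higher. The lower one was miR-146b, at -0.56 ± 0.22 (edgeR adjusted p = 0.1255). The list medians were 0.04, 0.35 and 0.59, against 0.08 over all loci. These lists were not tested as a whole or against the members.

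Of the red cell miRNAs, the list with the highest summed level, some were lower in cadmium blood. Of 8 erythroid names listed, which give miR-486 under several, 5 were tested, and miR-451a, miR-486a and miR-486b were not. Of the 5 tested loci 2 fell and 0 rose, miR-486 at -0.60 ± 0.07 and miR-144 at -0.58 ± 0.15 (edgeR adjusted p = 0.00204 and 0.0359), and the list median was -0.10. miR-16, whose copies share their sequence, stood at -0.04 ± 0.07 and miR-22 at -0.10 ± 0.08 (edgeR adjusted p = 0.704 and 0.439). Each of the 4 sequences of the 5 tested loci was counted once in the summed level. That sum was 330199 and 343840 CPM in cadmium 1 and 2, against 442430 and 425258 CPM in controls 1 and 2. Only loci listed in all 4 libraries were tested, so no tested marker could be at 0. Platelet miRNAs summed to 212 and 190 CPM in cadmium 1 and 2, against 256 and 191 CPM in controls 1 and 2. Of 5 platelet names listed, which include both miR-126 and miR-126a, 4 were tested, miR-126 not among them. Of the 4 tested loci 0 passed the edgeR threshold, 0 had an unadjusted p under 0.05 and DESeq2 called 0. The most abundant, miR-126a, stood at -0.15 ± 0.20, and the list median was -0.15. Liver miRNAs summed to 3668 and 3635 CPM in cadmium 1 and 2, against 4980 and 4275 CPM in controls 1 and 2. Of 5 liver loci 3 were tested, miR-122 and miR-194-2 not among them. Of the 3 tested loci 0 passed the edgeR threshold and 1, miR-148a at -0.41 ± 0.12, was lower at an unadjusted p under 0.05 and with DESeq2, and the median was -0.25. The part of red cell, platelet and liver RNA in the lower miR-181 and miR-150 levels was not tested.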

How the data were processed

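Small RNA libraries of whole blood, prepared from total RNA isolated with the miRNeasy kit and an Illumina protocol, were used as deposited, per the labels' protocols. The authors deposited 1 table per library with the count of mature reads at each listed locus, whole numbers that are not normalized. Bowtie 0.12.2, DESeq and build mm10 are named in the submitters' processing notes. The role of each tool and the miRNA release were not given in the sources used here. The lowest count listed was 5, so an unlisted locus is not a measured 0. An unnamed row with the column total in cadmium 1 was left out, star forms repeating a locus were merged, and the sequence column of control 2 was not used because 162 of its 693 lengths match their windows.

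Loci listed in all 4 libraries with windows overlapping by at least 10 bases were tested (277 loci, of which filterByExpr removed 1) with edgeR 4.0.16 in R 4.3.3: quasi-likelihood F test, TMM, two-sided, group as the only term, 2 residual degrees of freedom, Benjamini-Hochberg over all loci. Standard errors are the log2 fold change over the square root of F. The test code was run on simulated counts drawn independently for each locus. Copied loci share reads in the real data, so that run does not vouch for the test here. TMM factors were 1.13 and 1.09 in cadmium 1 and 2, and 0.892 and 0.912 in controls 1 and 2. Across loci, log2 CPM of the cadmium libraries correlated at 0.997 and of the controls at 0.992 (Pearson). Chi-square over its degrees of freedom, 60.6 in cadmium and 1019 in control, lay above sampling noise. For shares, each mature sequence was counted once.

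Alternatives used DESeq2 1.42.0, limma 3.58.1 and other scalings, filters and libraries. Named loci are all members, the most abundant locus of each other list, the 3 nearest sequences of 4 members and the list names not tested. Further, miR-18a, miR-24, miR-144, miR-16, miR-22, miR-146b, miR-29b and miR-155 were named after their values were seen. Exact matching of windows used the libraries other than control 2. Members and lists were chosen with earlier results of these data known. Annotation is GENCODE M21 and coordinates are 1-based. Tables and figures used matplotlib 3.10.9, pandas 2.3.3, SciPy 1.17.1 and Python 3.11.15.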

Additional observations from a re-analysis of the deposited data

How the results depend on the processing

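Under total counts 65 loci and 0 member loci were called, with a member median of -0.25. DESeq2 size factors and the DESeq2 test called 48 and 51 of 276 loci, and 6 member loci each with a member median of -0.64. Upper quartile gave a member median of -0.31 and totals without dominant loci -0.42. Scaling by miR-142 reads called 47 of 275 loci and 4 member loci (median -0.59). A mean CPM of at least 10 called 27 of 129 loci and 4 member loci (-0.67), and edgeR's exact test 48 of 276 and 4. With 1 locus per sequence 29 of 211 loci and 1 member were called (-0.38), as copies then count once. Identical windows gave a member median of -0.52. Scaling by miR-181c reads, added later, called 70 loci and 0 member loci (-0.30). Leaving out each library gave 8 to 122 loci, 0 to 7 member loci and medians of -0.57 to -0.43: without cadmium 1 or 2 there were 8 and 9 loci and 0 members, and without control 1 or 2 there were 105 and 122 loci and 7 members. The cause of these changes was not tested, and a fit without 1 library takes its spread from the other group alone.

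The labels' numbers do not show whether libraries share animals or batches. Across loci, deviations of same-numbered libraries from their group means correlated at 0.0047. A low correlation cannot exclude a shared batch, so whether same-numbered libraries are paired is not known. The replicate block called 19 loci and 0 member loci.

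Neither miR-142 nor miR-342 passed the threshold under any alternative that gave an adjusted p. miR-142 turned positive relative to miR-181c (0.29), with total counts (0.24), with the upper quartile (0.17), when dominant loci left the totals (0.060) and without cadmium 2 (0.042), and leaving out a library gave -0.18 to 0.042. miR-342 turned negative with DESeq2 size factors (-0.040), in the DESeq2 test (-0.050, with no adjusted p given), without control 1 (-0.31) and without cadmium 2 (-0.19), and leaving out a library gave -0.31 to 0.49. miR-181a stayed negative in all 18 alternatives and past the threshold in 13, and miR-150 stayed negative in 18 and passed in 4. Both tallies include the fits without control 1 and without control 2. Leaving out a library also moved the differences in log2 read ratio, cadmium minus control. The difference lay between -0.89 and -0.56 for miR-181a over miR-142 and between -0.61 and -0.35 for miR-150 over miR-142. For miR-181c over miR-181a it lay between 0.28 and 0.59, and for miR-181d over miR-181a between 0.22 and 0.63. For miR-342 over miR-142 it lay between -0.32 and 0.59, and for miR-181b over miR-181a between -0.05 and 0.14. miR-342 had the fewest reads of the members, 46 to 93 a library, and depth as its limit was not tested.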
